A study of Mus musculus with 4 samples.

Results

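Integrins are the main receptors by which cells hold on to the extracellular matrix, and 10 integrin subunit genes were followed here in an inner ear cell line and in neurons made from it. The members were chosen by gene symbol, in 2 classes. The laminin-binding class held Itga3, Itga6, Itga7, Itgb1 and Itgb4, and the class for other matrix held Itga5, Itgav, Itgb3, Itgb5 and Itgb8. All 10 had a row among the 49997 gene symbols of each library. They were proposed with earlier results of the same comparison known, so their differences between neurons and proliferating cells are given as a description and support nothing by themselves.

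The study compared wild-type mouse iMOP cells, an immortalized line of multipotent otic progenitors, with neurons derived from that line. Both groups come from the 1 cell line, without animals, so the 2 libraries of a group are separate samples of it. Proliferating cells were grown in DMEM/F12 with B27, carbenicillin and basic FGF at 20 ng/ml. Neurons were grown in Neurobasal medium with N21, L-glutamine and K03861, a CDK2 inhibitor, at 1 µM. Total RNA depleted of ribosomal RNA was sequenced with strand kept, in 2 libraries per group, and the titles of both replicate 2 libraries carry a shared set label. The labels call the replicates biological but do not describe their cultures, so the spread between libraries may be partly technical.

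An integrin is a pair of 1 alpha and 1 beta chain. The beta-1 chain, from Itgb1, pairs with many alpha chains, and the alpha chain largely sets the ligand: alpha-3, alpha-6 and alpha-7 bind laminins of basement membranes, alpha-5 binds fibronectin, and alpha-v binds fibronectin, vitronectin and other proteins that carry the RGD peptide. Alpha-6 also pairs with beta-4, the integrin of hemidesmosomes, and alpha-v pairs with beta-3, beta-5 and beta-8. In the inner ear, as in other neural tissue, laminins and their integrins are known for guiding epithelial patterning and the growth of neurites.

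Libraries held 7446361 to 14484011 counts. The 18S ribosomal RNA row took 53.3% of these in proliferating replicate 1 and 59.4% in neuron replicate 1. It took 75.0% in proliferating replicate 2 and 76.1% in neuron replicate 2, so its share differed by replicate number. Without that row, 2595578 to 3850766 counts remained. Proliferating replicate 2 stood apart, with 17762 genes detected against 20012 to 21637 in the other libraries. The neuron label was only partly borne out by markers. With TMM scaling, Elavl4 and Map2 were higher in both neuron libraries than in both proliferating ones. That was 2 of the 10 tested neuronal markers, against 12.9% of all tested genes. A log2 fold change above 0 was found for 7 of the 10, against 6651 of all 12783 tested genes. Tubb3 (-0.67), Stmn2 (-1.13, lower in both pairs) and Syt1 (-0.18) were below 0. Of the neuronal markers 0 passed the test, Gap43 was at 0 in both neuron libraries and Nefm had at most 1 count. The median of those 10, 0.40, was -0.10 with library size alone and -0.78 without neuron replicate 2. Of 8 otic progenitor markers, 3 were tested and 0 were called: Sox2 had a log2 fold change of -0.48 and overlapping groups, Sox9 had -1.66 and Eya1 0.72, both without overlap. Pax2 and Pax8 were at 0 in all 4 libraries, and Gata3 and Dlx5 had too few counts to be tested.

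Promoter sequence is shown for 3 members, to set a pair of genes lower in neurons in both replicate pairs, Itga5 and Itgb5, beside Itgb1, which was higher in both pairs with TMM scaling. Each is the 250 bases upstream of a RefSeq start on GRCm38.p6, 5′ to 3′ on the gene's strand. The start of Itga5 in this table was not found in a GENCODE M21 transcript. Capitals mark the GC box letters GGGCGG or CCGCCC, a match on either strand to the site of SP and KLF factors.
Itga5 (chr15:103366792-103367041, minus strand): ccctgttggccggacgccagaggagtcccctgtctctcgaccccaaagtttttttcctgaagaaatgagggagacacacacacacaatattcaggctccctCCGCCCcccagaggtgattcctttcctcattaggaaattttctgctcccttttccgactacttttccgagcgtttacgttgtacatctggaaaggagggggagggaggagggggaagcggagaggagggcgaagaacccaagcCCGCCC
Itgb5 (chr16:33829415-33829664, plus strand): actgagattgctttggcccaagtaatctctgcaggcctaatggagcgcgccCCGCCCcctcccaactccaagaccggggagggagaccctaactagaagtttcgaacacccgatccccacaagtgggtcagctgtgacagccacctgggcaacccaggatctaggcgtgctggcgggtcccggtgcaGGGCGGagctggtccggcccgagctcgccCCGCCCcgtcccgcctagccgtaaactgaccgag
Itgb1 (chr8:128685404-128685653, plus strand): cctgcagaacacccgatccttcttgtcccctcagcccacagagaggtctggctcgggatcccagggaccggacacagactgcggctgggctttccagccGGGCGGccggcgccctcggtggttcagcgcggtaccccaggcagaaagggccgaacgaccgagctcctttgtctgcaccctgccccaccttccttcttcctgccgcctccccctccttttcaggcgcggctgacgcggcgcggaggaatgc
The window of Itga5 held 2 GC box matches, that of Itgb5 3 and that of Itgb1 1. Itga3 and Itgav, not shown, were also lower in both pairs. The windows of Itga3 held 3 and 1 matches, and that of Itgav held 0. The window of Itgb8, which differed in direction between the pairs, held 0. Of all 32851 windows of this length, 32.7% held at least 1 match. GC content was 55.6% for Itga5, 65.2% for Itgb5 and 68% for Itgb1, against a median of 52.4% over all windows.

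The other motifs searched, on both strands, were TGANTCA (AP-1, in 6.75% of all windows), CCGGAAG (ETS factors, 6.91%), CACGTG (MYC, 6.02%), CCAAT (33.8%) and TATAAA (12.4%), and 0 matches to these stood in the 3 windows shown. Itga3, with 2 windows, was the member with an ETS match, 1 in its first window, chr11:95076715-95076964. CCAAT was matched once in the window of Itgb8 and once in the second window of Itga3. The window of Itgav, chr2:83724147-83724396, lay inside the span of its gene and held 0 matches to any of the 6 motifs. The second window of Itga3, chr11:95069199-95069448, also lay inside the span of its gene. A match is a run of letters and says nothing of binding. The windows came from a RefSeq table that held 6 of the 10 members, with Itga6, Itga7, Itgb3 and Itgb4 not matched.

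Itgb1 (chr8:128685654-128733579), the shared beta-1 chain, had the highest mean level per length in both groups. It had 674 and 242 counts in proliferating replicates 1 and 2, and 712 and 527 in neuron replicates 1 and 2. In CPM, counts scaled by the TMM-adjusted library size, the mean was 43.9 ± 15.9 for proliferating cells and 56.6 ± 4.35 for neurons (SD, n = 2 each). The low library was proliferating replicate 2, and the groups overlapped, since proliferating replicate 1 lay between the neuron libraries. The edgeR log2 fold change of neurons over proliferating cells was 0.37 with SE 0.47, and with library size alone, which moved the median of all genes by -0.29, it was -0.03. Within pairs, the CPM ratio of neurons to proliferating cells was 1.08 for replicate 1, with a 95% counting interval of 0.972 to 1.20, and 1.64 for replicate 2, with 1.41 to 1.92. With library size alone the ratio in replicate 1 was 0.830, and with library size without the 18S row it was 0.953. All such intervals are exact, cover counting error only, and take counts as independent molecules, which counts without molecular identifiers are not.

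**Figure D1:**
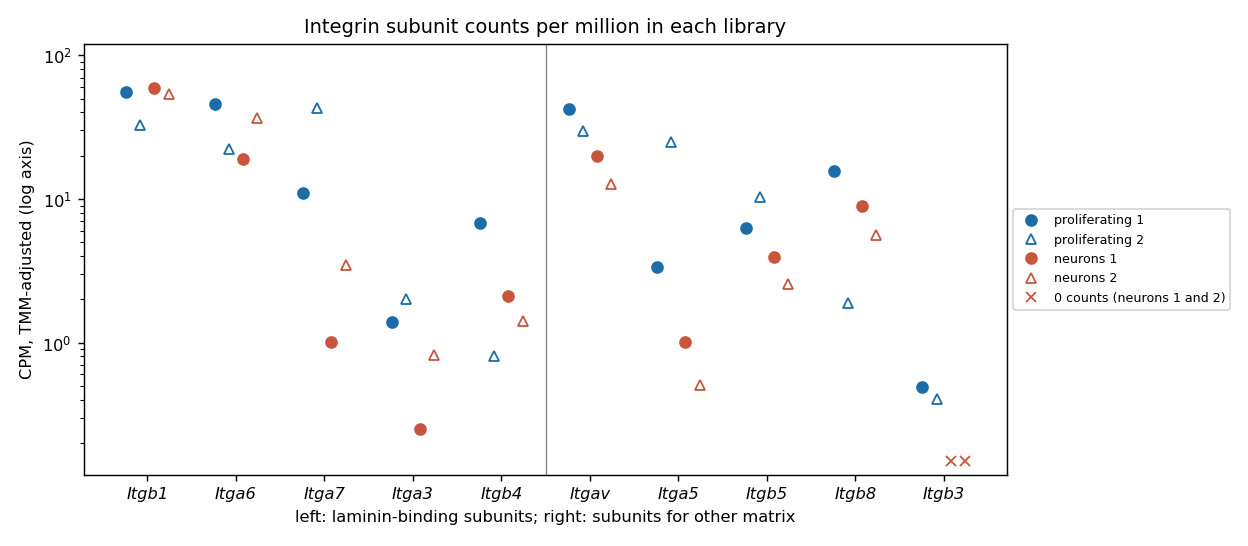
TMM-adjusted CPM (log axis) of the 10 integrin subunit genes in each library, blue for proliferating cells and red for neurons, filled circles for replicate 1 and open triangles for replicate 2, with crosses at the foot for 0 counts. Red symbols lie below both blue ones for Itga7, Itga3, Itgav, Itga5, Itgb5 and Itgb3, and overlap the blue ones for the other 4 genes.

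Itga7 (chr10:128933421-128958286), whose alpha-7 chain binds laminin with beta-1 and is best known from muscle, had 134 and 320 counts in proliferating replicates 1 and 2, against 12 and 34 in the neurons. Both neuron libraries lay below both proliferating ones. Mean CPM was 27.1 ± 22.8 for proliferating cells against 2.23 ± 1.73 for neurons (SD, n = 2 each), and the fitted log2 fold change was -3.60 (SE 0.89). The pairs gave similar sizes: neurons were 10.9-fold lower in replicate 1 (counting interval 6.04 to 21.6) and 12.5-fold lower in replicate 2 (8.76 to 18.4). The replicates themselves differed on the log2 CPM scale. Proliferating replicate 2 was above replicate 1 by 1.96, and neuron replicate 2 above replicate 1 by 1.60. Without proliferating replicate 2 the log2 fold change was -2.29.

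Itga6 (chr2:71786886-71858427), which encodes the alpha-6 chain of the laminin receptors with beta-1 and beta-4 and is a surface marker of many stem and progenitor cells, differed in opposite directions in the pairs. Its counts were 556 and 165 in proliferating replicates 1 and 2, against 228 and 360 in the neurons. The highest CPM was in proliferating replicate 1 and the lowest in neuron replicate 1, and the groups overlapped. Neurons were 2.38-fold lower in replicate 1 (counting interval 2.04 to 2.79) and higher by a ratio of 1.64 in replicate 2 (1.36 to 1.99). The pooled log2 fold change of -0.29 (SE 0.56) turned positive without proliferating replicate 1 (0.28) and without neuron replicate 1 (0.080).

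Itga3 (chr11:95044475-95076844), for the alpha-3 chain that binds laminins with beta-1, was scarce. It was counted 17 and 15 times in proliferating replicates 1 and 2, against 3 and 8 times in the neurons. Neurons were lower in both pairs, by 5.54-fold in replicate 1 (counting interval 1.60 to 29.5). In replicate 2 they were 2.49-fold lower, where the interval of 0.991 to 6.78 includes equal levels. Itgb4 (chr11:115974725-116008412), for the beta-4 chain of hemidesmosomes, was counted 83 and 6 times in proliferating replicates 1 and 2, against 25 and 14 times in the neurons. Proliferating replicate 1 was the high library and proliferating replicate 2 the low one, so the groups overlapped, and the log2 fold change of -1.13 (SE 0.92) became 1.08 without proliferating replicate 1. Its main cytoplasmic partners are the plakins: Plec, for plectin, had 1619 and 2613 counts in proliferating cells and 807 and 907 in neurons, and Dst, for dystonin, had 2610 and 764 counts in proliferating cells and 2192 and 1825 in neurons. The Plec counts did not overlap between groups in CPM, those of Dst did, and neither gene passed the test (log2 fold changes -1.60 and 0.22). The hemidesmosomal collagen gene Col17a1 had 1 to 10 counts in the 4 libraries.

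Among the subunits for other matrix, Itga5 (chr15:103344286-103366791), for the alpha-5 chain of the fibronectin receptor, had the lowest pooled log2 fold change of the tested members, though Itga7 had the larger difference in the replicate 1 pair and without replicate 2 of either group. It had 41 and 184 counts in proliferating replicates 1 and 2, against 12 and 5 in the neurons. Both neuron libraries lay below both proliferating ones, and proliferating replicate 2 was far above replicate 1. Mean CPM was 14.1 ± 15.2 for proliferating cells against 0.757 ± 0.352 for neurons (SD, n = 2 each), and the fitted log2 fold change was -4.17 (SE 1.02). The size rested on replicate 2: neurons were 3.34-fold lower in replicate 1 (counting interval 1.72 to 6.98) and 48.9-fold lower in replicate 2 (20.6 to 152). Without proliferating replicate 2 the log2 fold change was -2.10, and without proliferating replicate 1 it was -5.02.

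Itgav (chr2:83722303-83806917), for the alpha-v chain shared by the RGD receptors, was lower by nearly the same factor in both pairs. It was counted 516 and 219 times in proliferating replicates 1 and 2, against 238 and 126 times in the neurons, or 35.9 ± 8.99 CPM against 16.4 ± 5.06 CPM (SD, n = 2 each). Neurons were 2.12-fold lower in replicate 1 (counting interval 1.81 to 2.48) and 2.31-fold lower in replicate 2 (1.85 to 2.90), and the log2 fold change was -1.13 with SE 0.49. Both neuron libraries lay below both proliferating ones, but with library size alone the groups overlapped, while both pairs stayed lower.

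The beta partners of alpha-v differed in their pattern. Itgb5 (chr16:33829665-33949338), for the beta-5 chain of a vitronectin receptor, was counted 77 and 76 times in proliferating replicates 1 and 2, against 47 and 25 times in the neurons. Neurons were 1.60-fold lower in replicate 1 (counting interval 1.10 to 2.35) and 4.04-fold lower in replicate 2 (2.54 to 6.62), with a log2 fold change of -1.34 and SE 0.54 and no overlap of the groups. Itgb8 (chr12:119162803-119238276), for the beta-8 chain that pairs with alpha-v to activate latent TGF-beta, was counted 192 and 14 times in proliferating replicates 1 and 2, against 106 and 55 times in the neurons. Both neuron libraries lay between the proliferating ones: neurons were 1.77-fold lower in replicate 1 (1.39 to 2.26) and higher by a ratio of 2.96 in replicate 2 (1.62 to 5.76). The log2 fold change of Itgb8, -0.30 with SE 0.86, was 1.91 without proliferating replicate 1, -1.10 without proliferating replicate 2, 0.0094 without neuron replicate 2 and 0.24 with the replicate block. Itgb3 (chr11:104608000-104670476), for the beta-3 chain of platelets and bone, was counted 6 and 3 times in proliferating cells and was at 0 in the neurons. The counting interval put its fold difference at 1.15 or more in replicate 1, while in replicate 2 the limit of 0.549 includes equal levels, and it was not among the tested genes.

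**Figure D2:**
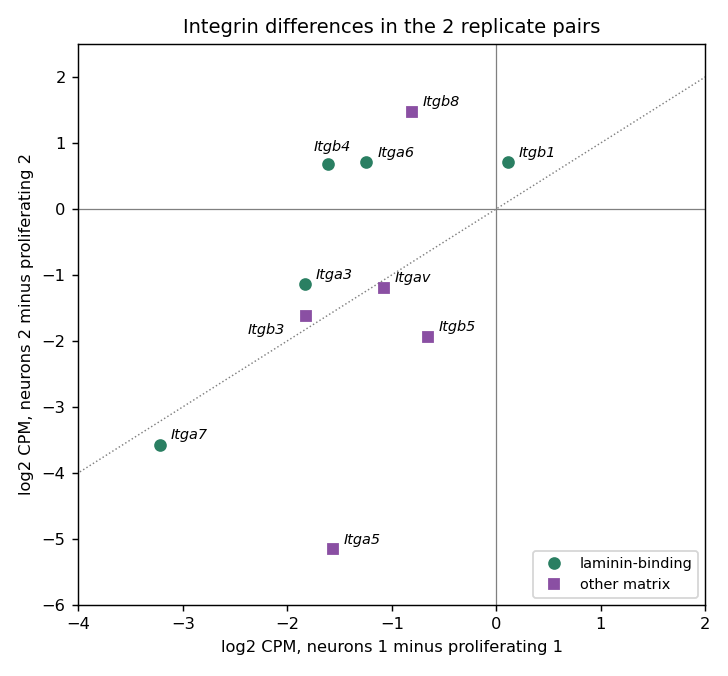
Difference in log2 CPM (prior count 2) between neurons and proliferating cells for each integrin gene, replicate 1 on the horizontal axis and replicate 2 on the vertical axis, green circles for laminin-binding subunits and purple squares for the others, with equal differences on the dotted line. Itga7 and Itgav lie close to the line, Itga5 lies far below it at -5.16 in replicate 2, and Itgb4, Itga6 and Itgb8 have opposite signs in the pairs.

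Set against the whole table, 9 of the 10 members passed the filter on low counts. In the edgeR quasi-likelihood test with Benjamini-Hochberg adjustment over 12783 genes, 0 of these 9 were called higher and 0 lower, and 0% of all tested genes were called in either direction. Before adjustment, 3 members (Itga5, Itga7 and Itgb5) and 438 genes in all had p under 0.05. The smallest adjusted p-value of a member was 0.813, for both Itga5 and Itga7. DESeq2 called both lower, where it called 0.0957% of genes higher and 0.375% lower, and so did edgeR without the filter, where 0.159% were called higher and 0.472% lower. An exact permutation test of 2 libraries against 2 reaches a two-sided p of 0.333 at best and was not made.

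CPM in both neuron libraries lay below both proliferating libraries for 5 of the 9 tested members, Itga3, Itga5, Itga7, Itgav and Itgb5, against 14.5% of all tested genes. It lay above both for 0 of the 9, against 12.9% of all tested genes. Neurons were lower in both replicate pairs for the same 5, against 25.5% of all tested genes, and higher in both for 1, Itgb1, against 28.8%. With library size alone, Itgav overlapped between groups and Itgb1 was lower in the replicate 1 pair. These shares read against the background only describe the members, which were chosen with this comparison known. In bulk RNA, fewer cells of a type and less RNA per cell cannot be told apart.

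The classes differed by pair. The laminin-binding class had a median log2 fold change of -1.13 over 5 tested genes, with 4 below 0, and the class for other matrix had -1.24 over 4, with 4 below 0, beside a median of 0.024 over all tested genes. In the replicate 1 pair the medians were -1.61 for the laminin-binding class and -0.94 for the other. In the replicate 2 pair they were 0.69 and -1.56. The laminin-binding genes higher in the neurons of replicate 2 were Itgb1, Itga6 and Itgb4, and the single member of the other class that was higher there was Itgb8. Without proliferating replicate 1 the median of the laminin-binding class was 0.28, while that of the other class was -1.28.

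Levels of different genes were compared per length, as CPM per kilobase of the mean RefSeq transcript, the length of each gene implied by the authors' RPKM values divided by its number of RefSeq transcripts. In neurons the order of mean levels was Itgb1 (13.5 ± 1.04 CPM per kilobase), Itga6 (4.72 ± 2.09), Itgb8 (2.34 ± 0.754), Itgav (2.02 ± 0.625), Itgb5 (1.11 ± 0.339), Itga7 (0.451 ± 0.350), Itgb4 (0.284 ± 0.0768), Itga5 (0.171 ± 0.0795), Itga3 (0.111 ± 0.0827) and Itgb3 at 0 (SD, n = 2 each). Itgb1 stood above every other member in both neuron libraries, while neighbours from Itga6 down to Itga3 differed by less than the sum of their SDs. In proliferating cells Itgb1 led at 10.5 ± 3.80, followed by Itga6 (5.75 ± 2.79), Itga7 (5.47 ± 4.60), Itgav (4.44 ± 1.11), Itga5 (3.18 ± 3.43), Itgb8 (2.85 ± 3.16) and Itgb5 (2.84 ± 0.957), and neighbours in this order differed by less than the sum of their SDs. Itgb4 (0.613 ± 0.683), Itga3 (0.356 ± 0.0930) and Itgb3 (0.0774 ± 0.0106) came last, each step except that from Itgb4 to Itga3 being larger than the summed SDs. In proliferating replicate 2 Itga7, at 8.72 CPM per kilobase, ranked above Itgb1, at 7.79. With the summed exons of GENCODE M21 as the length, Itgb8 moved from rank 3 to rank 5 in neurons, its length being 11060 bases there against the implied 3096, and Itgb1 ranked first in all 4 libraries.

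Since the beta-1 chain needs an alpha partner, the makeup of its 12 known alpha partners was followed within each library, which does not depend on scaling between libraries. Itga6 gave 43.9% and 16.2% of the summed alpha level in proliferating replicates 1 and 2, against 45.2% and 64.5% in the neurons. Itga7 gave 12.6% and 37.4% in proliferating cells and 2.84% and 7.26% in neurons, so its share was lower in both neuron libraries than in either proliferating one. The ratio of the Itga6 level to that of Itga7 was 3.48 and 0.433 in proliferating cells and 15.9 and 8.89 in the neurons, with no overlap. Itga5 gave 4.31% and 24.0% in proliferating cells and 3.17% and 1.19% in neurons, and Itgav 29.7% and 15.7% against 34.4% and 16.5%. The 3 laminin-binding alpha genes together gave 58.2% and 55.4% in proliferating cells and 48.8% and 73.6% in the neurons, a range in neurons that spans the values of proliferating cells. The summed alpha level was 1.33 and 2.995 times that of Itgb1 in proliferating cells, and 0.503 and 0.752 times in neurons. With GENCODE lengths these ratios were 0.907 and 2.11 in proliferating cells and 0.354 and 0.503 in neurons. Whether the sum exceeded Itgb1 in proliferating replicate 1 thus depended on the length used.

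**Figure D3:**
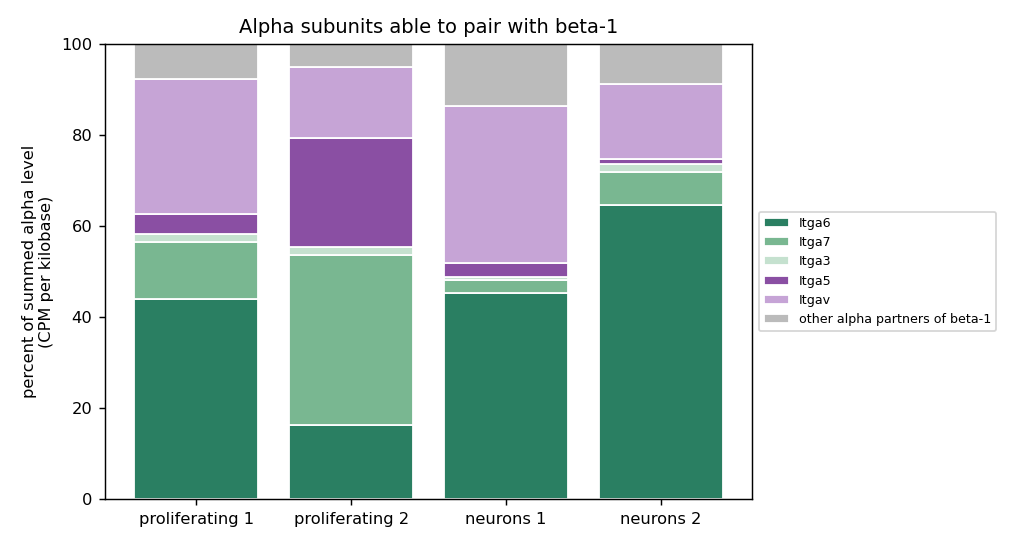
Stacked bars of the percent of the summed level (CPM per kilobase of mean RefSeq transcript) of the 12 alpha subunit genes whose products pair with beta-1, 1 bar per library. Itga7 shrinks from 12.6% and 37.4% in proliferating cells to 2.84% and 7.26% in neurons, and Itga5 is large in proliferating replicate 2 alone, at 24.0%.

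For the beta partners of alpha-v other than beta-1, Itgb8 gave 69.3% of the summed level of Itgb3, Itgb5, Itgb6 and Itgb8 in proliferating replicate 1 and 68.0% and 67.5% in the neurons, but 14.5% in proliferating replicate 2, where Itgb5 gave 83.8%. With GENCODE lengths the same shares of Itgb8 were 43.3%, 42.0%, 41.4% and 5.46%, so which of the pair led in 3 libraries depended on the length used, while proliferating replicate 2 stood apart with either. Itgb6 was at 0 in all 4 libraries.

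Of the 16 integrin genes outside the member list, 2 were tested and 0 passed the test. Itga9, for a chain that binds tenascin and other ligands with beta-1, was counted 69 and 40 times in proliferating replicates 1 and 2, against 51 and 39 times in the neurons, and Itgae, an integrin of lymphocytes, had 2 to 15 counts. The leukocyte genes Itgb2, Itgad and Itgax were at 0 in all 4 libraries.

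The ligand genes were followed as 2 lists. Of 11 laminin chain genes, 4 were tested, with 0 called and a median log2 fold change of -0.43, which was -0.03 without proliferating replicate 1. They were Lama5, Lamb1, Lamb2 and Lamc1, chains of the laminins of basement membranes. Lamc1, the gamma chain common to most laminins, was counted 785 and 838 times in proliferating replicates 1 and 2, against 411 and 456 times in the neurons, with no overlap and a log2 fold change of -1.13 (SE 0.49). Lama1, an alpha chain of early basement membranes, had 1 and 0 counts in proliferating cells and 13 and 10 in neurons, too few to be tested.

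Of 16 genes for other matrix ligands, 12 were tested and 0 were called, with a median log2 fold change of -0.78 and 4 genes at p under 0.05 before adjustment. Fn1, for fibronectin, the ligand of alpha-5 beta-1, was counted 1043 and 227 times in proliferating replicates 1 and 2, against 282 and 228 times in the neurons. Its log2 fold change was -1.31 (SE 0.58). The size rested on replicate 1, with a log2 CPM difference of -1.84 in that pair and -0.40 in the replicate 2 pair. Tnc, for tenascin-C, was high in proliferating replicate 2, with 1755 counts against 96 in proliferating replicate 1 and 156 and 67 in the neurons. That is the library in which Itga5 and Itga7 were also highest. Collagen IV genes, for the network of basement membranes, had the highest values of the list. Col4a2 had 40 and 13 counts in proliferating cells and 95 and 199 in neurons, with a log2 fold change of 2.46 (SE 0.65). Col4a1 had 60 and 63 against 177 and 295, with 1.74 (SE 0.58). Their edgeR adjusted p-values, with Benjamini-Hochberg adjustment over all genes, were 0.868 for Col4a2 and 0.9998 for Col4a1.

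The machinery that links integrins to actin and to signalling had lower values in neurons for most of its tested genes, with 0 of 20 called. The median log2 fold change was -0.74 (-0.34 without proliferating replicate 2). Values below 0 were found for 17 of the 20, against 6132 of all 12783 tested genes. Both neuron libraries lay below both proliferating ones for 13, against 14.5% of all tested genes. This list was chosen with earlier results of these data known, so its shares are a description only. Tns1, for tensin-1, had the lowest value, with 58 and 113 counts in proliferating cells and 3 and 24 in neurons (log2 fold change -2.90, SE 1.01). The tetraspanin genes Cd9 and Cd81, whose products sit beside laminin-binding integrins in the membrane, had log2 fold changes of -1.75 (SE 0.69) and -1.33 (SE 0.47). Cd151, another tetraspanin partner of these integrins, had -0.56 (SE 0.63) with overlapping groups. Tln1, for talin-1, which switches integrins on, had -0.59 (SE 0.48), and the actin-linked Zyx, Actn1 and Vcl had -1.36, -1.14 and -0.86. Ilk had -0.80 (SE 0.53) and Ptk2, for focal adhesion kinase, had -0.05 (SE 0.44). Bcar1 had the highest value of this list, 0.39 (SE 0.79). Among receptors for laminin that are not integrins, Dag1, for dystroglycan, had 422 and 381 counts in proliferating cells and 274 and 298 in neurons, and 0 of 2 tested genes were called.

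**Figure D4:**
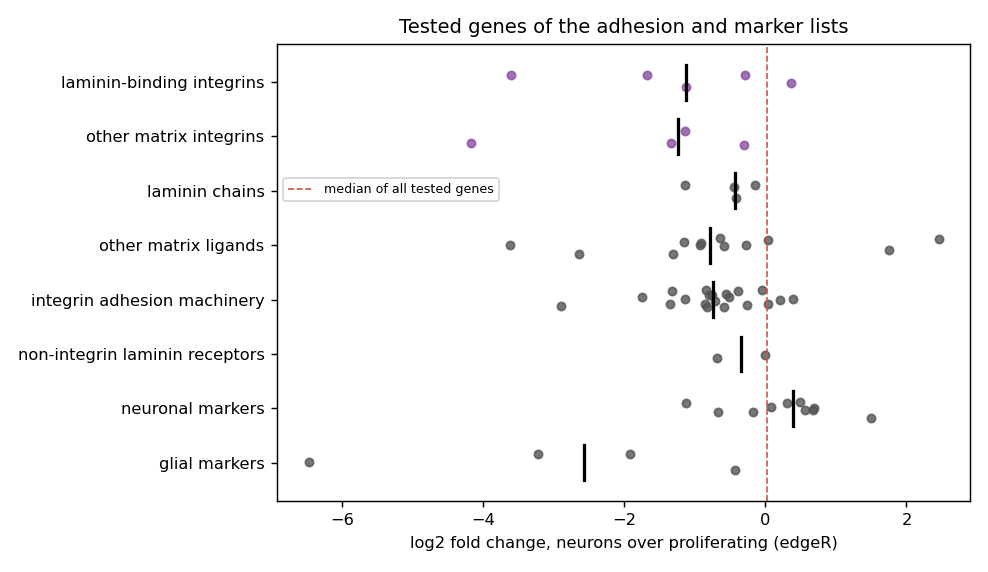
Log2 fold changes of neurons over proliferating cells (edgeR) for the tested genes of 8 lists, 1 point per gene, purple for integrins and grey for other lists, with black bars for list medians and a dashed line for the median of all tested genes. The bars of both integrin classes, at -1.13 and -1.24, and of the adhesion machinery, at -0.74, lie left of the dashed line, and none of the points was called.

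Markers of other cells were measured beside these differences. The 10 glial markers had a summed level of 73.6 to 74.1 CPM in proliferating cells and 9.45 to 26.1 CPM in neurons, with 4 of 10 tested and all 4 below 0. Gfap, the astrocyte filament gene, had 181 and 89 counts in proliferating cells and 1 and 2 in neurons, while Mbp, a myelin gene, and Sox10, a transcription factor of Schwann cells and oligodendrocytes, had 0 to 2 counts in every library. Aqp4, of the astrocyte endfoot, had 356 counts in proliferating replicate 1 and 2 to 31 elsewhere, and 0 of the 10 markers were at 0 in all libraries. Glial markers were lower in the same neuron libraries as Itga7 and Itga5, and their part in those differences was not tested. The 8 fibroblast and mesenchyme markers summed to 10.1 to 10.8 CPM in proliferating cells and 7.93 to 17.9 CPM in neurons, mostly from Pdgfra, with Col1a2, Dcn and Pdgfrb at 0 in all libraries. Endothelial markers summed to at most 1.21 CPM and blood cell markers to at most 1.34 CPM in any library, with Emcn, Ptprc and Pf4 at 0.

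The mean profile of the 5 laminin-binding genes over the 4 libraries, in centred log2 CPM, was most closely matched by Myc, at a distance of 0.1502, with Nfe2l2 (0.153), Arrb1 (0.189) and Crim1 (0.205) also near, among genes counted 50 times or more on average. These 4 points share libraries and depth. The 5 genes themselves lay 0.881 to 2.98 from their own mean, farther than each of these matches, so the mean profile stands for none of them closely. Whether the Myc counts, 4762 to 14011 per library, include a copy used to immortalize the line was not tested.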

How the data were processed

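RNA of 2 proliferating and 2 neuron libraries of the iMOP line was measured. The members and lists were chosen with earlier results of these data known. Per the submitters' processing notes, HISAT2, SAMtools, featureCounts, DESeq2, deepTools 3.4.3 and the mm10 build were used, with roles and settings not given in the sources used here. Whether strand was used in counting is not given either. Itgb4 shares 537 exon bases with B230344G16Rik on the other strand (0 to 2 counts) and Itga7 shares 9 with Mettl7b (0 or 1). Itgav shares 634 with Gm13684, which was not analysed here. Each library has 2 files deposited by the authors, with unnormalized counts and with RPKM. For all 21343 genes with counts in at least 2 libraries, 1 length per gene turned the deposited counts into the deposited RPKM in every library (relative tolerance 0.001).

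Groups came from sample titles. The test was edgeR 4.0.16 in R 4.3.3: TMM, filterByExpr (minimum count 10, minimum total 15), glmQLFit with the legacy method and glmQLFTest, group as single term, two-sided, Benjamini-Hochberg adjustment, call under 0.05. SE is the log2 fold change over the root of F. Pair differences are of log2 CPM with prior count 2. The titles of both replicate 2 libraries carry a set label and those of replicate 1 carry none. Deviations of same-numbered libraries from group means correlated across genes at r = 0.33, so a replicate block was an alternative. Other alternatives were RLE factors, library size alone, DESeq2 1.42.0, no filter, limma 3.58.1 on log2(RPKM + 1) and log2(RPKM + 0.1), the 18S row left out, and each library left out. The legacy = FALSE fit and GENCODE M21 lengths were added after seeing the data. The procedure was also run on simulated counts, in which the altered genes were well counted and all genes shared the same spread. That run does not cover scarce members, and its outcome is not reported here. All 10 members were named, as could be any listed gene, the default being the 2 highest and 2 lowest of a list, and the 5 genes nearest in profile, of which 1 is not reported here. Python 3.11.15 and scipy 1.17.1 gave the intervals. Promoters and coordinates are RefSeq's, GRCm38.p6, the same assembly as mm10.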

Additional observations from a re-analysis of the deposited data

How the results depend on the processing

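In the main fit 0 genes were called in either direction, and 438 had an unadjusted p-value under 0.05. The counts of calls higher and lower in neurons were 41 and 122 with no filter and 12 and 47 with DESeq2 (248 adjusted p-values not given). Calls lower in neurons were 2 with library size alone, 3 with the replicate block, 1 with log2(RPKM + 1) and 2 with log2(RPKM + 0.1), with 0 higher in each. Leaving out 1 library gave 3 to 33 higher and 11 to 90 lower, in fits where the lone library is assumed to vary like the others. The cause of these differences was not tested. RLE factors (442 unadjusted), the 18S row left out (448) and legacy = FALSE (473) gave 0 calls.

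Itga7 was called lower in neurons with DESeq2 (log2 fold change -3.63, adjusted p 0.00294), with no filter (-3.54, adjusted p 5.3e-05) and without proliferating replicate 1 (-4.33, adjusted p 0.0172). Itga5 was called lower in the same fits (-4.22, -4.11 and -5.02, adjusted p 0.00298, 1.4e-05 and 0.00569). Neither gene was positive under any setting run. The replicate block called 0 members, with adjusted p-values of 0.0825 for Itga7 and 0.25 for Itga5.

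With 1 library left out, log2 fold changes ranged from -0.82 to 0.28 for Itga6 (positive without replicate 1 of either group), from -1.92 to 1.08 for Itgb4 (positive without proliferating replicate 1) and from -1.10 to 1.91 for Itgb8 (positive without proliferating replicate 1, and 0.0094 without neuron replicate 2). Itgb8 was also positive with the replicate block (0.24) and with log2(RPKM + 0.1) (0.063), and Itgb1 was -0.029 with library size alone. That setting moved the median of all genes by -0.29. The median of the laminin-binding class was -1.38 to 0.28 with 1 library left out, and turned to 0.28 without proliferating replicate 1. Against -1.13, it was -0.66 with the replicate block, -0.49 with log2(RPKM + 0.1) and -0.10 with log2(RPKM + 1). That of the other class was -1.63 to -0.96 with 1 library left out and -0.68 with log2(RPKM + 1), a scale that understates changes of low values. With GENCODE lengths the laminin-binding share of the alpha level was 54.2% and 48.3% in proliferating replicates 1 and 2. Depth limits Itga3, Itgb3 and Itgb4, which had at most 25 counts in at least 3 libraries.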
